A study of Mus musculus with 8 samples.

Results

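The sirtuins are the 7 genes Sirt1 to Sirt7, and their transcripts were followed from young adulthood to very old age in the mouse hippocampus. All array probes assigned to 1 of these 7 symbols were taken, whatever their values, which gave 10 probes among the 39408 tested and 7 genes among the 19742 with a symbol. Sirt4, Sirt6 and Sirt7 had 2 probes each and the other 4 genes had 1. Both groups were untreated wild type C57BL/6J mice kept in home cages, and by the study's methods the old mice were bought at an advanced age and then housed on. The 3M group held 4 samples from mice of 3 months and the 29M group 4 samples from mice of 29 months, each sample being the whole hippocampus dissected by hand. The sources used here give neither the sex of the mice nor whether a sample was 1 animal. The p-values therefore set group differences against the spread between these samples, which may differ from that between animals. RNA was labelled with Cy3 and each sample was hybridised to its own array, where the brightness of a spot reports the abundance of 1 transcript.

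Sirtuins remove acetyl and other acyl groups from lysines and consume NAD in doing so, which ties their activity to the metabolic state of the cell. SIRT1, SIRT6 and SIRT7 are mainly nuclear and act on histones and transcription factors, SIRT2 is mainly cytosolic and, in the brain, prominent in myelinating oligodendrocytes, and SIRT3, SIRT4 and SIRT5 reside in mitochondria. The family is known from work on lifespan and on memory, but transcript levels say nothing of the activity of the enzymes.

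The sequences just upstream of 3 sirtuin genes are printed, chosen after their values were seen. Sirt5 was the sirtuin whose age groups did not overlap, which also held for 11.1% of all probes. Sirt4 was the most variable between samples. Sirt2 was the sirtuin set against oligodendrocyte transcripts, with which it varied. Each line gives the 250 bases before the annotated start of the gene, 5′ to 3′ on the strand of the gene, from RefSeq on GRCm38.p6. Capitals mark matches to the motifs searched. In Sirt5 (chr13:43365285-43365534, + strand) they mark an SP motif (GGGGCGGGG, here on the opposite strand), in Sirt4 (chr5:115484298-115484547, - strand) an E2F motif (TTTCCCGC), and in Sirt2 (chr7:28766502-28766751, + strand) an NF-kappaB motif followed by an SP motif on the opposite strand.
Sirt5: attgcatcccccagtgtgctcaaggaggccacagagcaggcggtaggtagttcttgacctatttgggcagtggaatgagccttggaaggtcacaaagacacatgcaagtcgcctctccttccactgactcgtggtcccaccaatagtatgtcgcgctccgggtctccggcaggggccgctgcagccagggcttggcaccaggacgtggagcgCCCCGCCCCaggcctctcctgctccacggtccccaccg
Sirt4: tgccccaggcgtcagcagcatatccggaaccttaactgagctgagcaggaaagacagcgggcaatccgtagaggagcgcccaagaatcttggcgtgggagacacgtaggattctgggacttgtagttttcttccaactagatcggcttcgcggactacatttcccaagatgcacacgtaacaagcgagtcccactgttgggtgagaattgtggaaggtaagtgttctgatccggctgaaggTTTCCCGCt
Sirt2: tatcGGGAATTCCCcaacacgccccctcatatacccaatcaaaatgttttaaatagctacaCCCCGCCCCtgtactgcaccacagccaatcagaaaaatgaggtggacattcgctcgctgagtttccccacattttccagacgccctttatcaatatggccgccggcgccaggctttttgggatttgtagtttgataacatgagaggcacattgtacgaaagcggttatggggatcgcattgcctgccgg

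The arrays lay on 3 slides that each carried both ages: slide 1 held 3M replicate 1 with 29M replicates 3 and 4, slide 2 held replicate 2 of both ages, and slide 3 held 3M replicates 3 and 4 with 29M replicate 1. Between 76.2% and 85.0% of spots were well above background, the lowest share being that of 3M replicate 1, the only array that the extraction software set aside for evaluation. All 11 hippocampal marker genes were well above background on every array, and so were 10 of 13 markers of other brain regions. Of the 11 hippocampal genes 4 had a change above 0, with a median of -0.14. None of the 13 markers of other regions passed the test. Of these 13, 6 had a change above 0 and the median was -0.04. Pcp2 of cerebellar Purkinje cells changed by 0.91 (limma adjusted p = 0.126) and Gabra6 of cerebellar granule cells, not well above background on all arrays and named after its values were seen, by 1.35 (limma adjusted p = 0.179), and the part of such tissue in the sirtuin values was not tested. Cell type markers were read on the brightest probe of each gene, where 2.26% of all genes passed. Of 14 microglial genes 5 were higher in 29M (C1qa by 0.86 and Ctss by 0.83 on the log2 scale, for example), with a list median of 0.41. Of 10 astrocyte genes 1 passed as higher (Gfap, by 0.71). By sign 6 of the 10 had a change above 0, with a list median of 0.15. None of 14 neuronal, 8 endothelial or 8 choroid plexus genes passed the test, which at that share does not set these lists apart. The mean level of the choroid plexus genes ran from 13.80 to 15.08 in 3M and from 14.39 to 14.85 in 29M. The part of choroid plexus in the sirtuin values was not tested. In whole tissue, a change in the number of cells of a type and in the RNA per cell cannot be told apart. The study's own cell counts in CA1 found no significant change in neurons, astrocytes or microglia.

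None of the 10 sirtuin probes passed the test for a difference between 29M and 3M, which required an adjusted p under 0.1 in limma and a log2 change of at least 0.5 (1.41-fold). Over all probes 2.06% passed (1.25% higher and 0.809% lower in 29M), and at such a share 0 of 10 does not set the sirtuins apart from other genes. At an unadjusted p under 0.05 stood 1 sirtuin probe, that of Sirt5, where 16.9% of all probes did. By sign, the brightest probe was higher in 29M for 5 genes and lower for 2, where it was higher for 10437 of all 19742 genes. The changes ran from -0.13 (Sirt7) to 0.27 (Sirt5) with a median of 0.08, against 0.01 over all genes. For 6 of the 7 genes the 95% interval of the change on that probe lay within 0.5 in either direction, and Sirt4 was the exception. The groups did not overlap for 1 of 10 probes (10%), against 11.1% of all probes. All 10 probes were well above background on all 8 arrays, and none of their spots was saturated or marked as an outlier. Levels below are normalized log2 intensities of a probe, which depend on how well that probe binds, so no gene's level is set against another's.

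**Figure D1:**
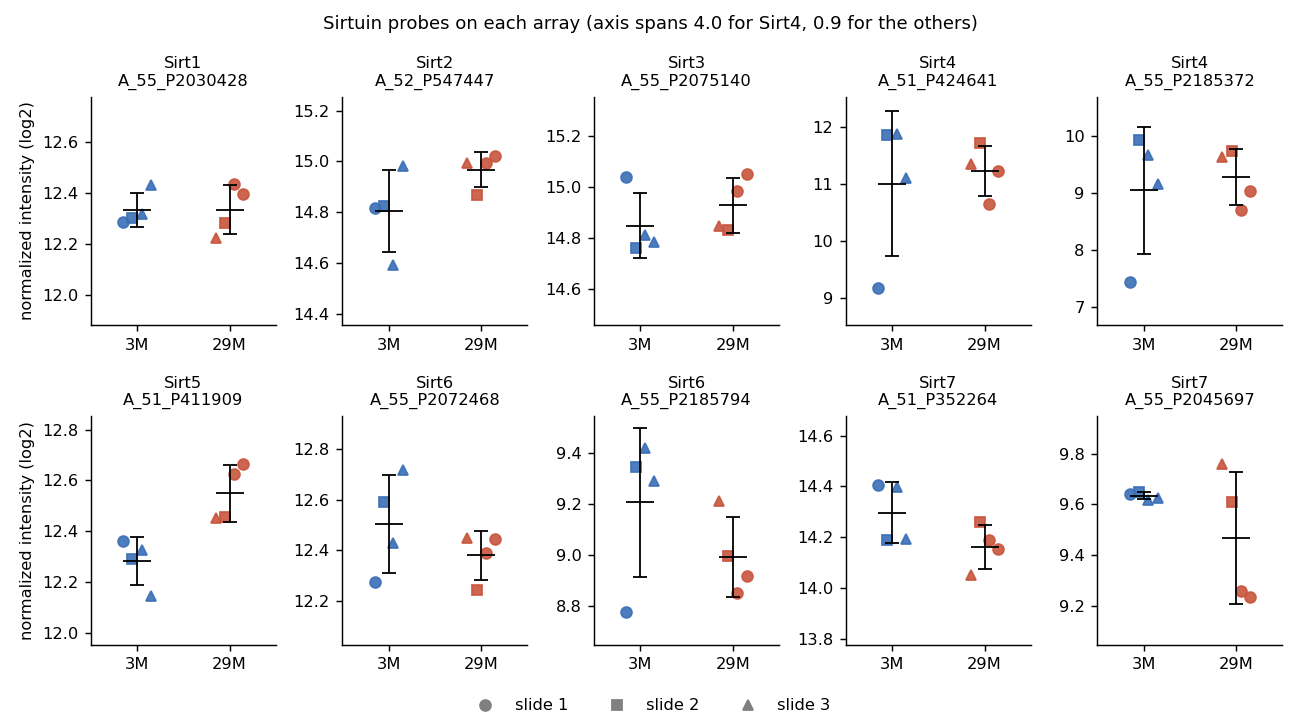
Normalized log2 intensity (y axis) of the 10 sirtuin probes in the 3M and 29M samples (x axis). Each point is 1 array with its slide as the symbol, and bars give the mean and SD of 4 samples. The 29M points of Sirt5 all lie above its 3M points, and for both Sirt4 probes 3M replicate 1 (slide 1) lies far below the rest.

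Sirt1, the most studied nuclear sirtuin and a deacetylase of p53, FOXO factors and PGC-1alpha, had the same mean level at both ages to within 0.01. Its probe read 12.28, 12.30, 12.32 and 12.43 in 3M replicates 1 to 4 and 12.23, 12.28, 12.43 and 12.40 in 29M replicates 1 to 4. The samples of both ages interleaved over a span of 0.21. The means were 12.33 ± 0.07 in 3M and 12.34 ± 0.10 in 29M (SD, n = 4 each), a change of 0.00092 (SE 0.08, 95% interval -0.18 to 0.18, limma adjusted p = 0.998). The interval corresponds to 0.881- to 1.14-fold, so a change past the 1.41-fold threshold lies outside it. Within slides 1, 2 and 3 the change was 0.13, -0.02 and -0.15, and its sign was the same in 9 of 18 alternative fits and the opposite in the other 9.

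Sirt6, a nuclear enzyme of telomeric chromatin, DNA repair and glucose metabolism, was lower in 29M by sign on both of its probes and not past the test on either. The brighter one, A_55_P2072468, read 12.27, 12.59, 12.43 and 12.72 in 3M and 12.45, 12.24, 12.39 and 12.44 in 29M. Its 29M values fell within the lower part of the 3M values, apart from replicate 2, which was the lowest of all 8. The change was -0.12 (SE 0.11, 95% interval -0.37 to 0.12, limma adjusted p = 0.617), and it ran from -0.19 without 3M replicate 1 to -0.05 without 3M replicate 4. The dimmer one, A_55_P2185794, read 8.78, 9.35, 9.42 and 9.29 in 3M and 9.21, 9.0, 8.85 and 8.92 in 29M. Here 3M replicates 2 to 4 lay above all 29M samples and 3M replicate 1 below them all. Its change was -0.21 (SE 0.15, 95% interval -0.55 to 0.12, limma adjusted p = 0.507), and it ran from -0.35 without 3M replicate 1 (limma adjusted p = 0.102) to -0.14 without 3M replicate 3 (limma adjusted p = 0.711), with -0.11 when slide was a fixed block (limma adjusted p = 0.624). Within slides 1, 2 and 3 this probe changed by 0.11, -0.35 and -0.14.

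Sirt7, the sirtuin of the nucleolus that binds RNA polymerase I, was also lower in 29M by sign on both probes without passing the test. The brighter probe, A_51_P352264, read 14.41, 14.19, 14.40 and 14.19 in 3M and 14.05, 14.26, 14.19 and 14.16 in 29M. The 3M values came in a higher and a lower pair, and the lower pair lay among the 29M values. The change was -0.13 (SE 0.09, 95% interval -0.33 to 0.07, limma adjusted p = 0.493), and it was -0.23, 0.07 and -0.25 within slides 1, 2 and 3. The dimmer probe, A_55_P2045697, read 9.64, 9.65, 9.62 and 9.63 in 3M, a range of 0.03, and 9.76, 9.61, 9.26 and 9.24 in 29M, a range of 0.52. Only the 29M samples on slide 1, replicates 3 and 4, stood clearly below the 3M samples. The change of this probe was -0.17 (SE 0.12, 95% interval -0.44 to 0.11, limma adjusted p = 0.533), with -0.39, -0.04 and 0.14 within slides 1, 2 and 3. It ran from -0.27 without 29M replicate 1 to -0.09 without 29M replicate 4.

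Sirt2, which deacetylates alpha-tubulin and other cytosolic proteins, was higher in 29M by sign on all 3 slides and did not pass the test. It read 14.82, 14.83, 14.59 and 14.98 in 3M and 14.99, 14.87, 14.99 and 15.02 in 29M. The 29M samples were close together, and 3M replicate 4 lay among them while the other 3M samples lay below. The means were 14.80 ± 0.16 and 14.97 ± 0.07 (SD, n = 4 each), a change of 0.16 (SE 0.10, 95% interval -0.05 to 0.38, limma adjusted p = 0.431) or 1.12-fold. Within slides 1, 2 and 3 it was 0.19, 0.04 and 0.21, and all 18 alternative fits gave a change above 0, from 0.09 to 0.22, the value without 3M replicate 3 being 0.09.

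Sirt2 varied between samples together with oligodendrocyte transcripts. The mean level of 18 oligodendrocyte markers, among them the myelin gene Mbp, was 14.71, 14.76, 14.53 and 15.01 in 3M and 14.92, 14.95, 15.04 and 14.85 in 29M. The same 3M sample, replicate 3, was lowest for both measures, and 3M replicate 4 stood among the 29M samples for both. Over the 8 samples Pearson's r was 0.87 (exact permutation p = 0.00657, adjusted 0.0131 over 4 relations) and Spearman's rho 0.69 (exact permutation p = 0.0694, adjusted 0.139). Without 3M replicates 1 and 3, the samples farthest from the median marker level, r was 0.50, so the relation rested largely on those samples. It was 0.97 within the 4 samples of 3M and -0.22 within the 4 of 29M, and no slide held enough samples for a value of its own. The marker mean itself was 14.75 ± 0.20 in 3M and 14.94 ± 0.08 in 29M (SD, n = 4 each, two-sided exact permutation p = 0.114), and their summed intensity ran from 963220 to 1322350 in 3M and from 1180950 to 1397330 in 29M. On the brightest probe 14 of the 18 markers had a change above 0 and 1 passed the test, where 2.26% of all genes did. This was Trf, the iron carrier transferrin (0.78, limma adjusted p = 0.0324), with 0.64 for Aspa, which breaks down N-acetylaspartate (limma adjusted p = 0.177). A dimmer probe of Ermn, named after its values were seen, also passed, while its brightest changed by -0.24 (limma adjusted p = 0.297). The part of oligodendrocyte content in the Sirt2 values was not tested.

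**Figure D2:**
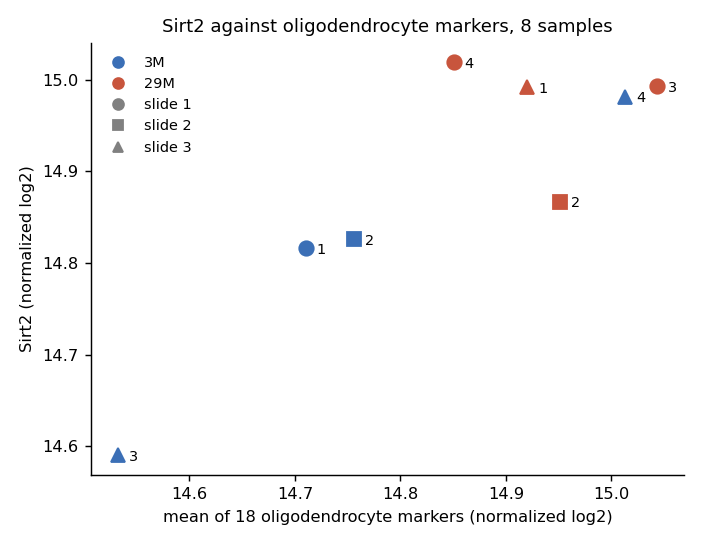
Normalized log2 intensity of Sirt2 (y axis) against the mean of 18 oligodendrocyte markers (x axis) in 8 samples, coloured by age, with slides as symbols and replicate numbers beside the points. The 3M samples spread along the whole diagonal, while the 29M samples gather at the upper right with no order among themselves.

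Sirt3, the main deacetylase of mitochondrial proteins, changed by 0.08 (SE 0.09, 95% interval -0.13 to 0.29, limma adjusted p = 0.717). It read 15.04, 14.76, 14.81 and 14.78 in 3M and 14.85, 14.83, 14.98 and 15.05 in 29M. Its 3 samples on slide 1 were the highest whatever their age, and the slide means were 15.03, 14.79 and 14.81. Within slides 1, 2 and 3 the change was -0.02, 0.07 and 0.05. It was 0.15 without 3M replicate 1 (limma adjusted p = 0.392) and 0.04 without 29M replicate 4 (limma adjusted p = 0.904).

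Sirt5, which strips succinyl, malonyl and glutaryl groups from mitochondrial enzymes, was the member with the clearest separation of ages, yet it did not pass the test after adjustment over all probes. It read 12.36, 12.29, 12.33 and 12.15 in 3M and 12.45, 12.45, 12.63 and 12.66 in 29M. Every 29M sample lay above every 3M sample, the gap between the nearest of them being smaller than the SD within either group. The groups did not overlap for 11.1% of all probes, so 1 such probe among 10 does not set Sirt5 apart. The means were 12.28 ± 0.10 and 12.55 ± 0.11 (SD, n = 4 each). This was a change of 0.27 (SE 0.09, 95% interval 0.07 to 0.47) or 1.204-fold, with a limma adjusted p of 0.177 (0.0140 before adjustment). The whole interval lay below the log2 threshold of 0.5. Within slides 1, 2 and 3 the change was 0.28, 0.16 and 0.22. All 18 alternative fits placed it between 0.19 and 0.30, with an unadjusted p under 0.05 in 16 of them and an adjusted p between 0.120 and 0.406. Microglial markers separated the ages as well: the mean of the 13 measured on all arrays ran from 13.89 to 14.15 in 3M and from 14.30 to 14.53 in 29M, and their part in the Sirt5 values was not tested.

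**Figure D3:**
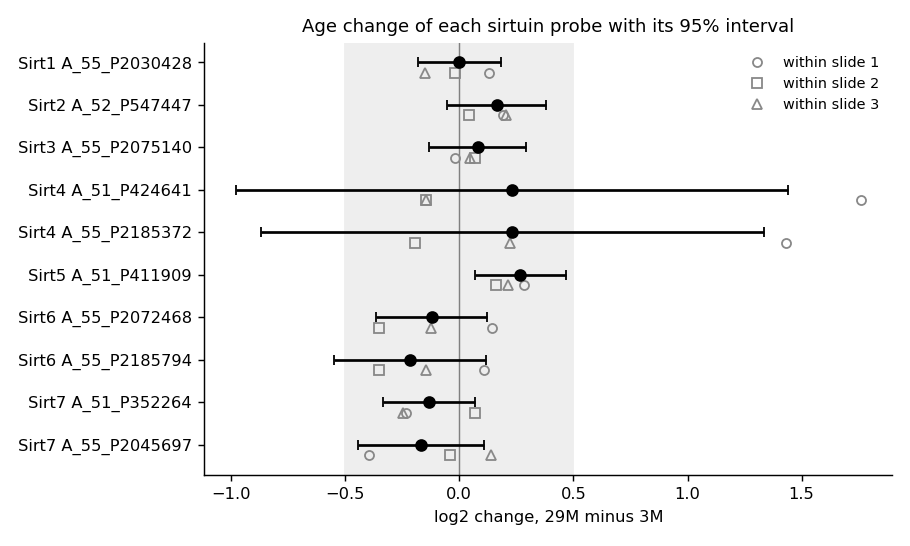
Log2 change between 29M and 3M (x axis) of each sirtuin probe (rows), as black points with the 95% interval from limma, and the change within each slide as open grey symbols. The grey band spans changes below the threshold of 0.5. The interval of Sirt5 alone lies wholly above 0, and only Sirt2 and Sirt5 keep 1 sign on all slides.

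Sirt4, a mitochondrial enzyme that acts on glutamate dehydrogenase and on branched-chain amino acid breakdown, was the most variable sirtuin. Probe A_51_P424641 read 9.18, 11.85, 11.87 and 11.10 in 3M and 11.34, 11.70, 10.65 and 11.22 in 29M. The 3M samples held both the highest and the lowest values of all 8, a range of 2.70 or 6.48-fold. The pooled SD within groups was 0.948, above that of 99.7% of the 29161 probes well above background on every array, whose median was 0.155. The means were 11 ± 1.27 and 11.23 ± 0.44 (SD, n = 4 each), and the change of 0.23 (SE 0.54, 95% interval -0.98 to 1.44, limma adjusted p = 0.872) leaves room for a change past the threshold in either direction. Without 3M replicate 1 its sign turned, to -0.37 (limma adjusted p = 0.462), and with slide as a fixed block it was 0.55 (limma adjusted p = 0.505). Within slides 1, 2 and 3 the change was 1.76, -0.15 and -0.14, the first resting on that same sample.

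The other Sirt4 probe, A_55_P2185372, is assigned to the same transcript and followed the same course at a lower brightness. It read 7.44, 9.93, 9.65 and 9.15 in 3M and 9.62, 9.73, 8.70 and 9.04 in 29M, with 3M replicate 1 lowest and 3M replicate 2 highest. Its change was 0.23 (SE 0.49, 95% interval -0.87 to 1.33, limma adjusted p = 0.856), with -0.30 without 3M replicate 1 and 0.55 with slide as a fixed block (limma adjusted p = 0.371). Across the 8 samples the Sirt4 probes correlated with r = 0.98 (exact permutation p = 0.000322, adjusted 0.00129 over 4 relations) and rho = 0.90 (exact permutation p = 0.00456, adjusted 0.0183), and r was 0.86 without 3M replicate 1 and 29M replicate 3. Both probes thus showed the same sample differences, on an array of 3M replicate 1 that also had the lowest share of spots above background. The part of array quality in this value was not tested.

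Probe pairs of the other sirtuins followed each other less closely. The Sirt6 probes had r = 0.65 (exact permutation p = 0.0830, adjusted 0.111) and rho = 0.57 (exact permutation p = 0.151, adjusted 0.202), and r = 0.71 without 3M replicate 4 and 29M replicate 2. The Sirt7 probes had r = 0.12 (exact permutation p = 0.801 before and after adjustment) and rho = 0.02 (exact permutation p = 0.977 before and after adjustment), and r = -0.22 without 3M replicates 1 and 3. No difference in age change between the probes of 1 gene was detected: it was -0.00190 for Sirt4 (two-sided exact permutation p = 1), 0.09 for Sirt6 (p = 0.457) and 0.03 for Sirt7 (p = 0.886), each with an adjusted p of 1 over 3 pairs, where the smallest p that 4 against 4 samples allow is 0.0286.

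The 2 genes whose course over the 8 samples was most like that of each sirtuin were taken from 16037 genes well above background on all arrays. For Sirt4 these were Mark3, a microtubule affinity-regulating kinase (r = 0.997, values 10.005 to 12.81), and Cep120, a centriole protein (r = 0.996, values 8.50 to 11.57), each lowest in 3M replicate 1 and highest in 3M replicate 2. In all, 485 genes had r over 0.9 with Sirt4, against 189 for Sirt3, 130 for Sirt2, 91 for Sirt5, 44 for Sirt7, 42 for Sirt6 and 18 for Sirt1. For Sirt2 they were Creb3l1, a transcription factor of the endoplasmic reticulum membrane (r = 0.990), and Pcolce2, a collagen processing factor (r = 0.988), each lowest in 3M replicate 3, as Sirt2 was. For Sirt5 they were the homeobox gene Vsx1 (r = 0.983) and the transcription factor gene Tfcp2l1 (r = 0.976), and Tfcp2l1 passed the test with a rise of 0.60 (limma adjusted p = 0.05002) while Vsx1 changed by 0.54 (limma adjusted p = 0.102). Sirt1 was most like Tsr3 (r = 0.958) and Noc4l (r = 0.953), both of ribosome production, and Sirt3 most like Syap1 and Adap1 (r = 0.981 each). Sirt6 was most like Rpl3l (r = 0.981) and the glutamate transporter gene Slc1a1 (r = 0.979), and Sirt7 most like Zfp82 (r = 0.975) and Marchf11 (r = 0.970). With 8 samples and 16037 genes to choose from, the highest r was above 0.9 for all 7 sirtuins, and these values are given as a description.

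**Figure D4:**
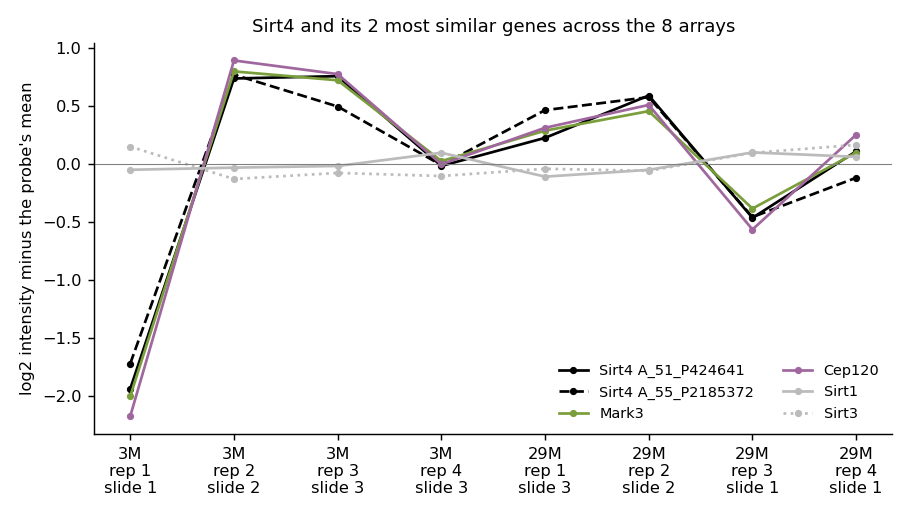
Normalized log2 intensity minus the mean of each probe (y axis) on the 8 arrays (x axis, with slide) for both Sirt4 probes, Mark3 and Cep120, with Sirt1 and Sirt3 in grey. Both Sirt4 probes, Mark3 and Cep120 drop by about the same amount in 3M replicate 1, where Sirt1 and Sirt3 do not.

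The genes around the sirtuins were followed in 7 lists, on the brightest probe of each gene, where 2.26% of all genes passed the test (1.58% higher and 0.689% lower in 29M). Of 28 measured genes that make or consume NAD, the cosubstrate of all sirtuins, none passed and the median change was 0.03. Nampt, which controls NAD salvage, had a change of 0.39 (limma adjusted p = 0.135), Qprt of the de novo route 0.43 (limma adjusted p = 0.190), and Cd38, a major NAD-consuming enzyme, -0.43 (limma adjusted p = 0.132). Cd38 ranged from 10.51 to 10.98 in 3M and from 10.12 to 10.49 in 29M, and Nampt from 12.59 to 13.06 and from 13.04 to 13.25, so the ages were apart for Cd38 and overlapped slightly for Nampt. At an unadjusted p under 0.05 stood 10 of these 28 genes, where 17.1% of all genes did. The counts were 2 of 17 for the SIRT1 regulators and 6 of 40 for the substrates and target factors of the nuclear sirtuins. They were 4 of 26 for the mitochondrial and 4 of 15 for the SIRT2 substrates. For the partners of SIRT7 the count was 4 of 19, and for the other histone deacetylases 2 of 11.

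Among 17 direct regulators and partners of SIRT1 the median change was -0.12, and 1 passed as lower in 29M, where 0.689% of all genes did. This was Cdk1, the mitotic kinase, which ranged from 6.57 to 7.50 in 3M and from 6.13 to 6.35 in 29M, a change of -0.77 (limma adjusted p = 0.0642). It passed in 10 of 19 alternatives, and its other 2 probes, both dimmer, changed by -0.07 and -0.19. The kinase genes Dyrk3 and Dyrk1a changed by -0.29 (limma adjusted p = 0.191) and -0.19 (limma adjusted p = 0.737). A dimmer probe of Mapk8, the kinase JNK1, did pass with a rise of 1.004 (limma adjusted p = 0.0158), while its brightest changed by -0.12 (limma adjusted p = 0.540); it was named after its values were seen.

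The 26 mitochondrial proteins on which SIRT3, SIRT4 or SIRT5 act had a median change of 0.01. Acss1, a mitochondrial acetyl-CoA synthetase that SIRT3 activates, changed by -0.32 (limma adjusted p = 0.0749), short of the fold threshold alone. Pdhx of the pyruvate dehydrogenase complex changed by -0.32 (limma adjusted p = 0.162), short of the fold and the adjusted p threshold. Acss1 kept its ages apart, at 14.28 to 14.44 in 3M and 14.00 to 14.11 in 29M.

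Among the substrates of the nuclear sirtuins and of SIRT2, and among the partners of SIRT7, no gene passed. Of all genes 2.26% did, and at that share these lists are not set apart. The 40 substrates and target factors of the nuclear sirtuins had a median change of 0.03. Among those well above background on every array, the largest changes were -0.71 for the receptor gene Notch1 (limma adjusted p = 0.260), 0.41 for the kinase gene Stk11 (limma adjusted p = 0.508) and 0.37 for Hif1a, the hypoxia factor (limma adjusted p = 0.608). Within slides 1, 2 and 3 Notch1 changed by -1.62, -0.36 and -0.44. Stk11 changed by 0.97, 0.44 and 0.39, and Hif1a by 1.14, 0.15 and 0.32. All 3 moved most on slide 1, where 3M replicate 1 was the only 3M sample. The dim probe of Foxo4, named after its values were seen, changed by -0.41 (limma adjusted p = 0.288). The 15 substrates and microtubule partners of SIRT2 had a median of 0.05, with 0.30 for the dehydrogenase gene G6pdx (limma adjusted p = 0.157), -0.29 for Hdac6 (limma adjusted p = 0.169) and -0.22 for Aldh1a1 (limma adjusted p = 0.225). The 19 RNA polymerase I and nucleolar partners of SIRT7 had a median of -0.02, with 0.32 for Polr1d (limma adjusted p = 0.274), -0.27 for Nop58 (limma adjusted p = 0.190) and 0.25 for Taf1b (limma adjusted p = 0.247).

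The zinc-dependent histone deacetylases, which share the reaction with sirtuins but not the need for NAD, were set beside them. Of these 11 genes 9 had a change below 0, none passed, where 2.26% of all genes did, and the median was -0.10. For the sirtuins 5 of 7 had a change above 0 and the median was 0.08, where 10437 of all 19742 genes had a change above 0. These counts hold values near 0, those of Sirt1 (0.00092), Hdac10 (-0.0053) and Hdac7 (-0.012). That of Sirt4 turned to -0.37 without 3M replicate 1. Hdac9 changed by -0.33 (limma adjusted p = 0.220), Hdac6 by -0.29 (limma adjusted p = 0.169) and Hdac2 by 0.21 (limma adjusted p = 0.654). The difference between the families was not tested.

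**Figure D5:**
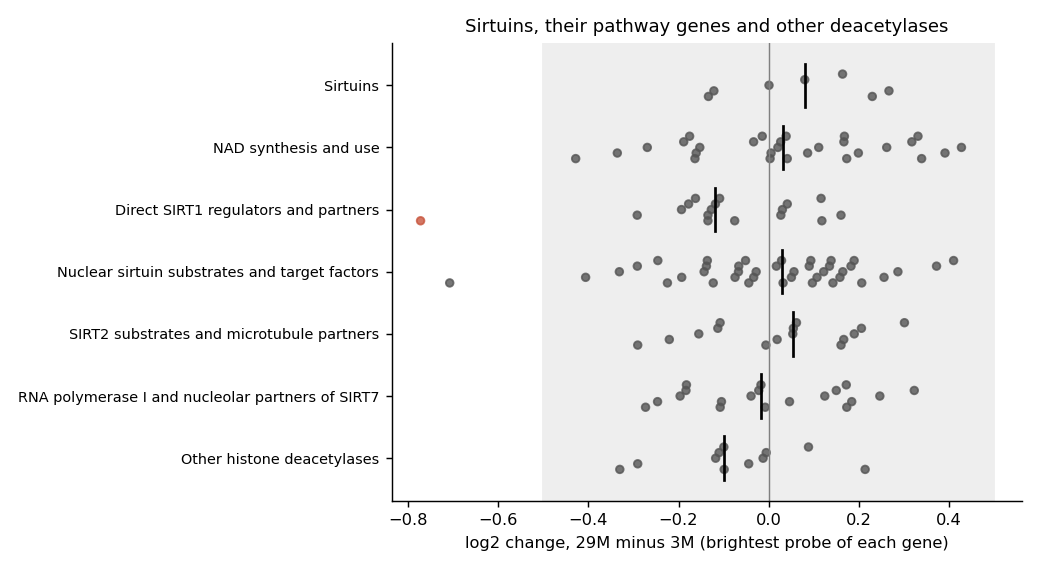
Log2 change between 29M and 3M (x axis) of the sirtuins, the genes of their pathways and the other histone deacetylases (rows), 1 point a gene on its brightest probe, with a black bar for the median of a list. The mitochondrial list is not drawn. The red point passed the test (Cdk1), and the grey band spans changes below 0.5. All 7 sirtuins lie within the band.

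The upstream windows of the sirtuins shared no single motif of the 13 searched on both strands. An SP motif was found for Sirt1, Sirt2 and Sirt5 (10.4% of 32851 windows of all genes hold it), an ETS motif (CCGGAAG, 6.91%) for Sirt3, Sirt6 and Sirt7, and an NF-kappaB motif (4.11%) for Sirt2 and the second start of Sirt6. The E2F motif of Sirt4, held by 0.895% of windows, began 9 bases before its start. Sirt1 held a pair of E-boxes (CACGTG, 6.02%), Sirt6 an NRF1 motif (0.782%) and Sirt7 a STAT motif (TTCNNNGAA, 7.02%). The G and C content was 79.2% for Sirt1, 62.8% for Sirt5, 53.2% for Sirt4 and 50% for Sirt2, against a median of 52.4% over all windows. A match is a description of letters and not of a bound site.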

How the data were processed

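RNA of 8 hippocampus samples was measured on 1-colour arrays, with group and replicate number taken from each title. The authors deposited, for each array, linear intensities from the scanner, made per the file headers with Agilent Feature Extraction 10.7.3.1 and not normalized between arrays. Those headers differ from the software and scanner named in the study's methods and were followed. A deposited table of the series also holds intensities, but each of its 8 columns held some array's local background means (tolerance 0.001). In 7 cases they were those of another sample, so the table was not used. Some of these crossed the ages. The columns of 3M replicates 2 and 3 held the background of 29M replicates 3 and 4. Those of 29M replicates 2 and 3 held that of 3M replicates 4 and 3. Ages here follow the titles of the samples that the scanner files belong to, and this assignment was not tested.

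Control spots and outlier spots were left out. The median spot intensity, which took the place of the planned mean, was put on a generalized log2 scale by variance stabilising normalization, written for this work in R 4.3.3 (trimmed quantile 0.9, 7 iterations), and spots of 1 probe were averaged. This scale understates changes of dim probes. Age was tested over 39408 probes with limma 3.58.1 and Benjamini-Hochberg adjustment, and a call needed both an adjusted p under 0.1 and a log2 change of at least 0.5, after the study's methods. On simulated data with 39429 probes, 200 of them changed, 83% were recovered at a log2 change of 0.6 and 100% at 1. The simulation gave all probes the same spread, held no slide effect and changed only brighter probes. These shares therefore do not describe probes as variable as those of Sirt4, or dim ones.

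Accessions matched to RefSeq named 26055 of 39429 probes (66.1%). Each gene was represented by its brightest probe on average. Of 29 NAD genes listed, Nnt was not matched. Some list genes are not reported here, so the mitochondrial list is given without a count of calls. All sirtuin probes, the 2 genes most like each sirtuin, and per list the called genes or the largest changes up to 3 (markers 2) were named. The members, lists and tests were chosen with earlier results of these data known, and no pattern is independent support for another. Slides were read from the array identifiers. Same-numbered samples did not deviate together, so samples were not paired.

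Alternatives were other normalizations, outlier spots kept, bright probes only, slide or replicate number as a block, a trended robust prior, array weights, an adjusted p under 0.05, and each sample left out. Intervals reflect the spread between 4 arrays a group, whose number limits the precision.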

Additional observations from a re-analysis of the deposited data

How the results depend on the processing

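No sirtuin probe passed the test under any of 19 alternatives, and 7 of the 10 probes kept their direction in all 18 alternative fits, the exceptions being Sirt1 and both Sirt4 probes. The Sirt1 change, near 0, turned sign with normexp and quantile normalization (-0.0162), slide as a fixed block (-0.0118) or random block (-0.000630) and array weights (-0.0319), and ran from -0.0328 to 0.0366 when 1 sample was left out. The Sirt4 change turned with array weights (-0.0660, and -0.00258 on the dimmer probe) and without 3M replicate 1, was 0.55 on both probes with slide as a fixed block, and ran from -0.37 to 0.52 (dimmer probe -0.30 to 0.53) when 1 sample was left out. The difference in age change between the Sirt4 probes was 0.0299 with normexp and quantile normalization. Causes were not tested. Over all probes 810 calls became 1436 with array weights, 487 at an adjusted p under 0.05, and from 399 (without 3M replicate 2) to 1465 (without 3M replicate 1) when 1 sample was left out. Other samples that moved this count by over 1.5 times were 3M replicate 3 (526), 29M replicate 1 (406) and 29M replicate 2 (445).

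The replicate numbers were not taken as pairs, since deviations of same-numbered samples correlated between -0.24 and 0.21 and 2 of 8 samples correlated best with their own number. With the replicate number as a block, 411 probes were called over the array and 0 sirtuin probes, and the adjusted p of Sirt5 was 0.341.

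The design had 4 samples a group, which left an interval of 0.18 to 1.21 on either side of a sirtuin's log2 change. None of the 20 groups of 4 sirtuin values held a sample far enough from the others to be singled out by Dixon's ratio, where chance gives about 1.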

Other observations

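Genes next to the sirtuins on the chromosome (within 1000 bases in RefSeq, named only) were read where the arrays held a tested probe. Those of Sirt4 had no such probe. None of the genes read passed the test, where 2.26% of all genes did, which does not set them apart. Near Sirt7, Mafg, a small Maf transcription factor gene, changed by -0.29 (limma adjusted p = 0.107), beside -0.13 for Sirt7 itself, while Pcyt2 of phospholipid synthesis changed by 0.00288. Near Sirt6, Ankrd24 changed by 0.48 (limma adjusted p = 0.212), beside -0.12 for Sirt6. Ric8a, which overlaps Sirt3, changed by -0.04 (limma adjusted p = 0.857), and Psmd13 of the proteasome by -0.08 (limma adjusted p = 0.704). Near Sirt2, Nfkbib, an inhibitor of NF-kappaB, changed by 0.06 (limma adjusted p = 0.795) and Rinl by 0.05 (limma adjusted p = 0.876).

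Acss2, the acetyl-CoA synthetase of cytosol and nucleus that SIRT1 activates, was chosen after its values were seen, as the counterpart of Acss1. It ranged from 13.25 to 13.48 in 3M and from 12.97 to 13.15 in 29M, a change of -0.33 (limma adjusted p = 0.0985) that was short of the fold threshold, and its dimmer probe changed by 0.00556.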
